A study of Mus musculus with 9 samples.

Results

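Hippocampal transcript levels of 9 genes of the mitochondrial death pathway were followed across 9 polyadenylated RNA libraries. The 9 genes were chosen by symbol: the antiapoptotic family members Bcl2, Bcl2l1, Bcl2l2 and Mcl1, the pore-forming effector Bak1, the BH3-only proteins Bid, Bad and Bcl2l11, and the caspase Casp9. All 9 were found among the 24394 genes of the count table, and all 9 passed the filter on low counts that left 15296 genes for testing. The set has been called BCL2 family and executioner caspases, but its only caspase, Casp9, is an initiator caspase. All animals were young C57BL6/J mice, an inbred strain. Sham mice were given saline, doxorubicin mice were injected with this topoisomerase II poison used in chemotherapy, and a further group received the same injection together with MitoQ, a ubiquinone-derived antioxidant that accumulates in mitochondria. Each group had 3 libraries, with totals of 24.7 to 41.2 M counts. The labels name neither dose nor interval, sex or age in weeks, and nothing states that each library came from its own mouse, so p-values measure the spread between libraries, which may be technical.

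In this pathway, antiapoptotic proteins such as BCL-2 and BCL-XL hold the effectors BAK and BAX in check on the outer mitochondrial membrane. BH3-only proteins relay damage signals by binding the antiapoptotic proteins or the effectors. Once the effectors open pores, cytochrome c is released and joins APAF1 in the apoptosome, which activates caspase-9 and, through it, the executioner caspases. Doxorubicin is known to engage this route in heart and tumour cells, and much of the family is controlled after transcription, by phosphorylation, cleavage or protein turnover, which RNA counts do not record.

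None of the 9 transcripts passed the threshold in any of the 3 pairwise comparisons, where 0% of all genes tested passed. The threshold was an adjusted p under 0.05 (edgeR quasi-likelihood test with Benjamini-Hochberg adjustment over all 15296 genes). None passed it in the test for any difference among the groups either (0%). DESeq2 and limma-voom also called 0 of the 9. Over all 15296 genes, DESeq2 called 44 in doxorubicin against sham, 5 in MitoQ against doxorubicin and 2 in MitoQ against sham. By limma-voom, 0 were called in each. At an unadjusted p under 0.05, edgeR counted 1 of 9 in doxorubicin against sham (8.83% of all genes, and 4.49% on the lower side, where this gene, Bcl2, lay), 0 of 9 in MitoQ against doxorubicin (3.3%) and 0 of 9 in MitoQ against sham (2.95%), with 0 of 9 for any difference among the groups (5.11%). Groups did not overlap for 1 of 9 genes in doxorubicin against sham (13% of all genes), for 1 of 9 in MitoQ against doxorubicin (9.71%) and for 0 of 9 in MitoQ against sham (9.11%). The 95% interval of the fold change lay within 1.5-fold in either direction for 8 of 9 genes in doxorubicin against sham, where 74.5% of all genes tested had such an interval. It did so for 9 of 9 in MitoQ against doxorubicin and in MitoQ against sham, against 76.3% and 77.8% of all genes. Bcl2 after doxorubicin was the exception. In bulk tissue, a lower level can come from fewer cells of a type or from less RNA per cell, and these cannot be told apart here.

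**Figure D1:**
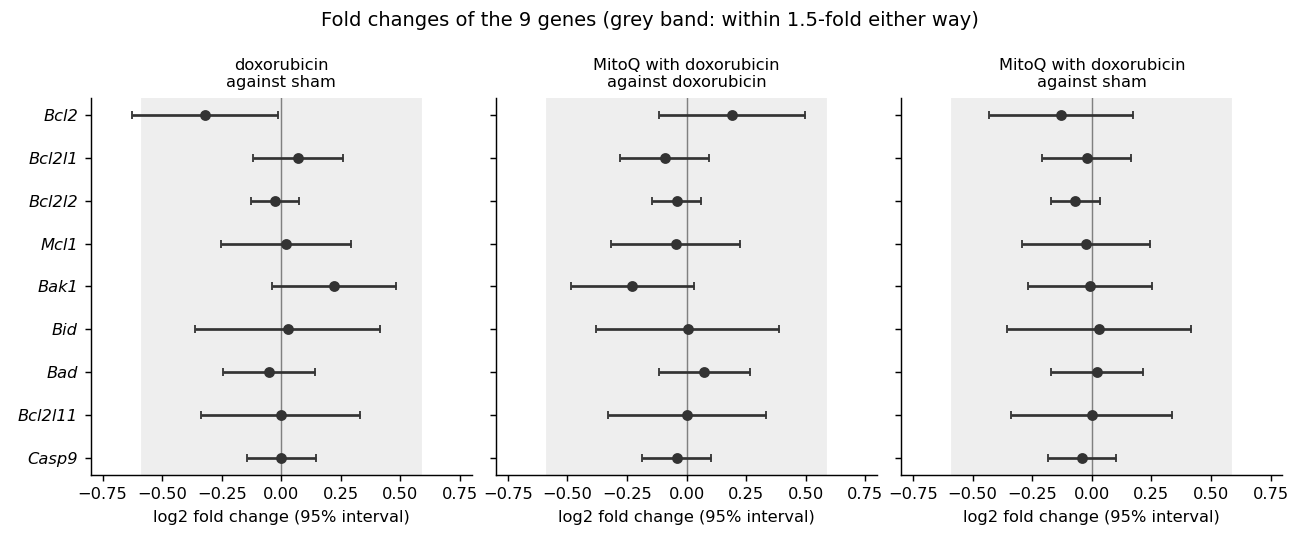
Log2 fold changes of the 9 genes (points) with 95% intervals (bars) in the 3 pairwise comparisons; the grey band spans 1.5-fold either way. Only the lower bound of Bcl2 after doxorubicin leaves the band, and the intervals of the other 8 genes in that comparison include 0.

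Levels between genes were compared as CPM per kb of annotated exon (CPM is the gene's count scaled to a TMM-adjusted library size of 1 M; exon lengths from GENCODE M21). Bcl2l2 was highest at 30.6 ± 0.92, followed by Bcl2l1 at 23.9 ± 1.93 and Mcl1 at 21.9 ± 2.43 CPM per kb (SD over 9 libraries). Bad stood at 8.78 ± 0.56, Bak1 at 5.82 ± 0.73, Casp9 at 5.75 ± 0.22 and Bid at 2.75 ± 0.41 CPM per kb. Bcl2 itself was near the bottom at 1.87 ± 0.28 CPM per kb, and only Bcl2l11 was lower, at 0.69 ± 0.07. The ranges of Bcl2l1 and Mcl1 overlapped, as did those of Bak1 and Casp9 and those of Bid and Bcl2; the other neighbours in this order did not overlap in any library. Lengths are those of all annotated exons joined, so a gene that uses a short form is understated.

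**Figure D2:**
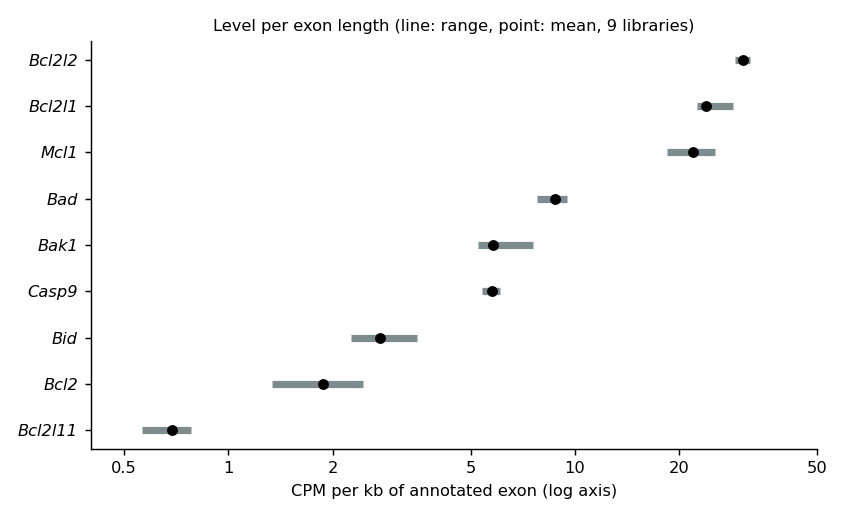
Level of each gene per kb of annotated exon (horizontal log axis, CPM per kb); the line spans the 9 libraries and the point is their mean. Bcl2l2, Bcl2l1 and Mcl1 lie between 18.5 and 32 CPM per kb, well above Bcl2 at 1.34 to 2.44.

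Among the antiapoptotic genes, Bcl2 (chromosome 1, 106538178 to 106714274, minus strand), the founding member of the family, was the one that differed most. Its CPM was 17.1, 22.4 and 17.4 in sham replicates 1 to 3, 16.8, 16.6 and 12.2 in the doxorubicin replicates, and 17.4, 16.9 and 17.7 in the MitoQ replicates. Every doxorubicin library thus lay below every sham library, although replicates 1 and 2 missed the lowest sham library only narrowly. The gap came from sham replicate 2, the highest of the 9, and doxorubicin replicate 3, the lowest. The group means were 15.2 ± 2.57 against 18.9 ± 2.97 CPM (SD, n = 3), a fold of 0.802 with a 95% interval of 0.648 to 0.991. The log2 fold change was -0.32 (SE 0.14, edgeR adjusted p = 0.55), and its p ranked 1187 of 15296. It was -0.18 without doxorubicin replicate 3 (edgeR adjusted p = 0.75) and -0.19 without sham replicate 2 (edgeR adjusted p = 0.82). Among the 9 genes Bcl2 alone had groups that did not overlap in this comparison, on the lower side, where 6.79% of all genes tested did so.

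With MitoQ, Bcl2 stood at 17.3 ± 0.43 CPM, every library above every doxorubicin library, which 4.73% of all genes did in that direction. The log2 fold change against doxorubicin was 0.19 (SE 0.14, edgeR adjusted p = 0.97) and 0.06 without doxorubicin replicate 3. Against sham it was -0.13 (SE 0.14, edgeR adjusted p over 0.99), or 0.01 without sham replicate 2. The MitoQ libraries lay inside the sham range apart from MitoQ replicate 2. The comparisons of doxorubicin with sham and of MitoQ with doxorubicin share the doxorubicin libraries and are not independent of each other.

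The other antiapoptotic transcripts differed less than Bcl2 in each pairwise comparison. Bcl2l1 (chromosome 2, 152780668 to 152831728, minus strand) encodes BCL-XL, a major survival protein of adult neurons. It stood at 104, 108 and 113 CPM in sham, 107, 103 and 131 CPM after doxorubicin and 104, 104 and 114 CPM with MitoQ. Doxorubicin replicate 3 was the highest of the 9 while the other libraries lay close together, and the fold after doxorubicin was 1.05 (95% interval 0.922 to 1.2). Its log2 fold change turned from 0.07 to -0.04 without that library, and that against doxorubicin with MitoQ from -0.09 to 0.02. Gene counts do not separate its long antiapoptotic form from the short proapoptotic one.

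Bcl2l2 (chromosome 14, 54883377 to 54888234, plus strand) encodes BCL-W. It was the steadiest of the 9, at 136, 139.9 and 143 CPM in sham, 135, 136 and 139.5 CPM after doxorubicin and 129, 137 and 133 CPM with MitoQ. Its biological coefficient of variation was 5.08%, and 0.765% of all genes tested had a lower one. The interval of its fold was 0.915 to 1.05 after doxorubicin and 0.889 to 1.02 with MitoQ against sham. In GENCODE M21 it shares 594 exonic bases with Gm20521, a gene on the same strand that extends beyond it, so reads of the shared exons cannot be assigned with certainty.

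Mcl1 (chromosome 3, 95658788 to 95663176, plus strand) encodes a short-lived survival protein. It varied more between libraries than between groups, at 63.1, 86.5 and 74.7 CPM in sham, 82.4, 77.9 and 67.4 CPM after doxorubicin and 63.6, 77.5 and 79.5 CPM with MitoQ. Its lowest and highest libraries were both sham, and its fold after doxorubicin was 1.01 (95% interval 0.84 to 1.22). Counts of the 4 antiapoptotic genes summed to 342 ± 18.9 CPM in sham, 342 ± 7.98 CPM after doxorubicin and 331 ± 15.4 CPM with MitoQ (SD, n = 3).

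Bak1 (chromosome 17, 27019810 to 27029009, minus strand) encodes the effector BAK, which in mouse neurons is known also in a splice form that these counts do not resolve. It was at 13.9, 13.2 and 12.8 CPM in sham, 13, 15.3 and 18.2 CPM after doxorubicin and 13.6, 12.6 and 13.5 CPM with MitoQ. Doxorubicin replicates 2 and 3 lay above the other 7 libraries, and replicate 1 lay within the sham range, so the groups overlapped. The means were 15.5 ± 2.59 against 13.3 ± 0.59 CPM (fold 1.16, 95% interval 0.972 to 1.4), with a log2 fold change of 0.22 (SE 0.12, edgeR adjusted p = 0.6). It was 0.09 without doxorubicin replicate 3 and 0.33 without doxorubicin replicate 1. MitoQ against doxorubicin gave -0.23 (SE 0.12, edgeR adjusted p = 0.97), or -0.10 without doxorubicin replicate 3 and -0.34 without doxorubicin replicate 1. MitoQ against sham gave -0.01 (SE 0.12).

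**Figure D3:**
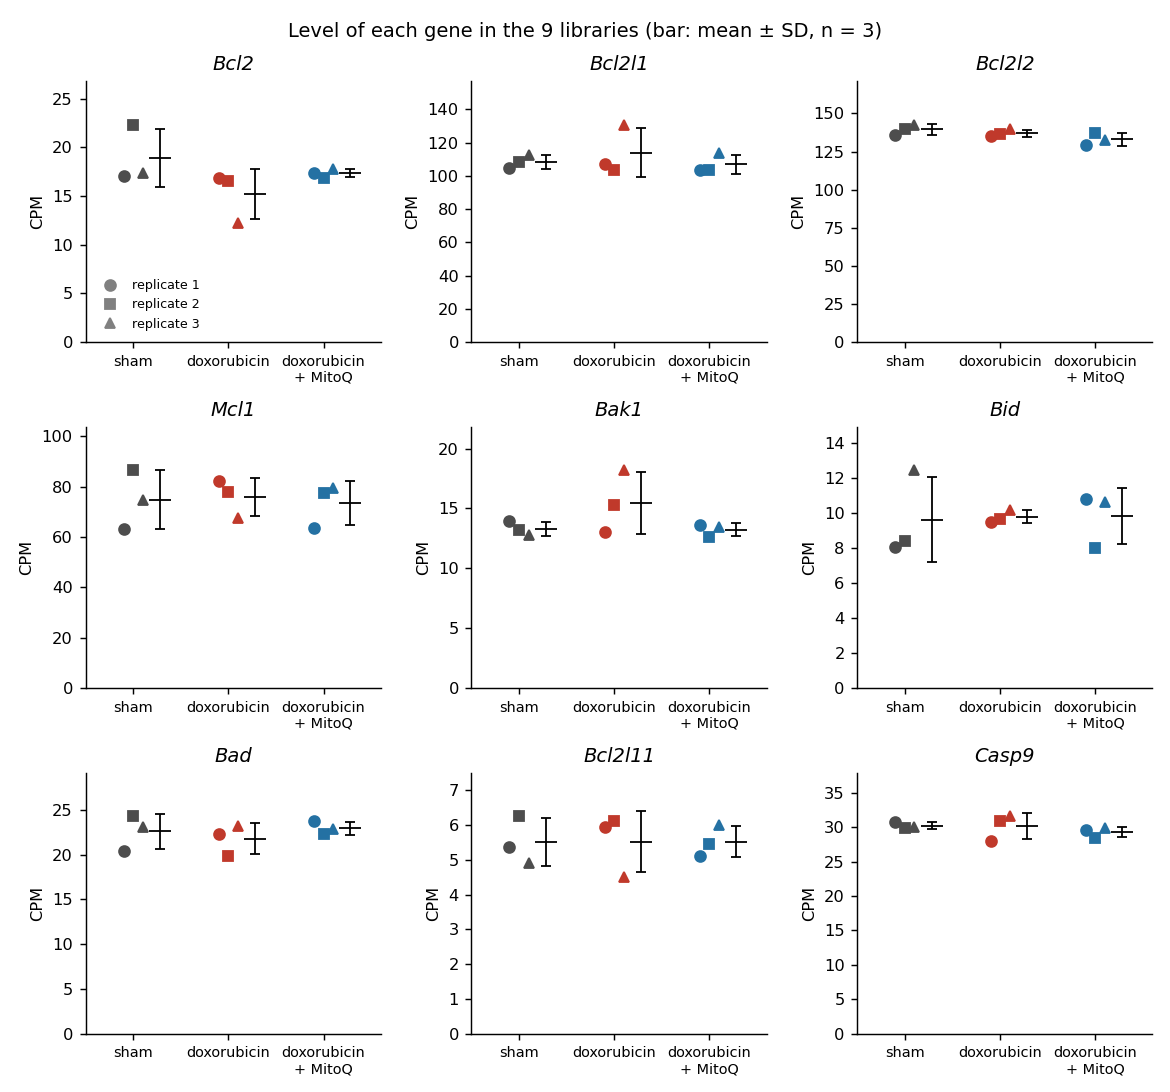
CPM of each gene in every library (vertical axes from 0), with groups on the horizontal axis, symbols for the replicate number and bars for the mean ± SD of 3 libraries. In most panels the groups cover the same range; doxorubicin replicate 3 is the lowest for Bcl2 (12.2 CPM) and the highest for Bak1 (18.2 CPM).

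The proteins of Bcl2 and Bak1 pull in opposite directions on the mitochondrial membrane, and the ratio of their transcripts was listed by library. These genes also had the smallest p-values of the 9 in doxorubicin against sham, with opposite signs. The ratio thus joins the extremes of these same data and is a description only. Bcl2 averaged 5.53% of the summed antiapoptotic CPM in sham, 4.46% after doxorubicin and 5.25% with MitoQ. The ratio of Bcl2 to Bak1 CPM was 1.22, 1.69 and 1.36 in sham, 1.29, 1.09 and 0.673 after doxorubicin and 1.28, 1.34 and 1.32 with MitoQ. Doxorubicin replicate 3 was the one library in which Bak1 counts exceeded Bcl2 counts. Doxorubicin replicate 1 lay within the sham range, so the groups overlapped, and no test was made of the ratio. Over the 9 libraries, log2 CPM of Bcl2 and Bak1 had a Pearson r of -0.76 (exact permutation p = 0.043, two-sided) and a Spearman rho of -0.37 (exact permutation p = 0.34). Adjusted over the 36 pairs of the 9 genes these became 0.39 and 0.88. Without the libraries farthest from the Bcl2 median, sham replicate 2 and doxorubicin replicate 3, r was -0.36, so the relation rested on those libraries. Without doxorubicin replicate 3 alone, r was -0.20. Within groups, with that library kept, r was -0.65.

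**Figure D4:**
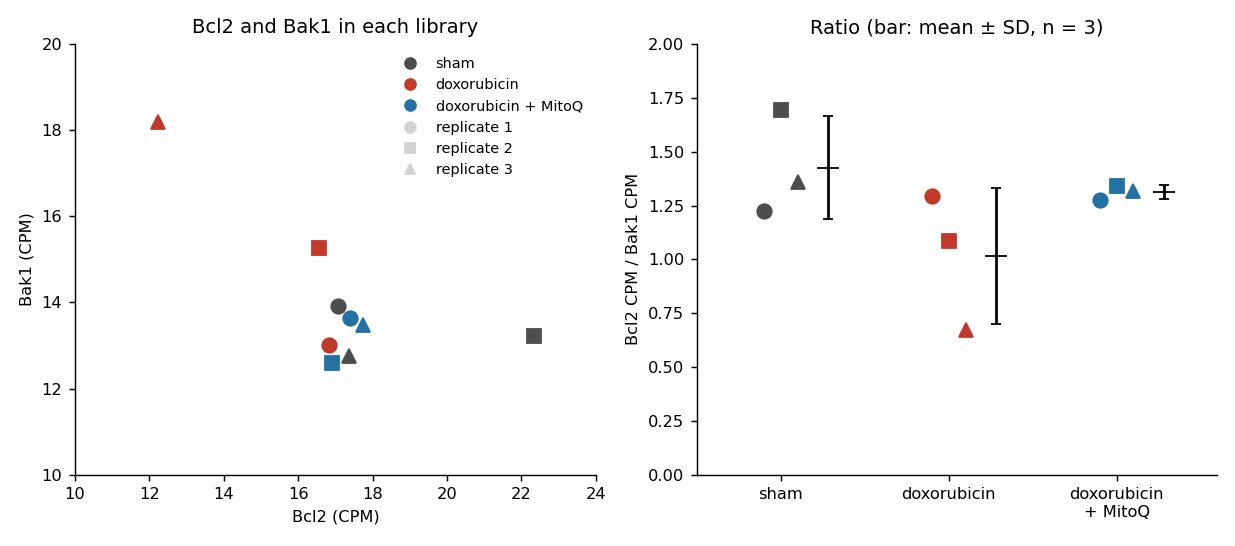
Left, Bak1 against Bcl2 in each library (both in CPM, axes not from 0); right, their ratio by group with mean ± SD of 3 libraries. Doxorubicin replicate 3 stands apart at 12.2 CPM of Bcl2 and 18.2 CPM of Bak1, a ratio of 0.673, while the MitoQ libraries lie between 1.28 and 1.34.

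The BH3-only genes had similar group means. Bid (chromosome 6, 120891930 to 120916853, minus strand) links death receptors to mitochondria once caspase-8 has cleaved its protein. It was at 8.06, 8.38 and 12.4 CPM in sham, 9.52, 9.63 and 10.2 CPM after doxorubicin and 10.8, 7.99 and 10.7 CPM with MitoQ. Sham replicate 3 was the highest of the 9, and without it the log2 fold change after doxorubicin moved from 0.03 to 0.24 (edgeR adjusted p = 0.62) and that of MitoQ against sham from 0.03 to 0.25. Bid was the most variable of the 9, with a biological coefficient of variation of 15.7% against a median of 9.73% over all genes tested.

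Bad (chromosome 19, 6941861 to 6951899, plus strand) encodes a BH3-only protein that growth factor signalling keeps phosphorylated and inactive. It was at 20.5, 24.3 and 23 CPM in sham, 22.3, 19.9 and 23.2 CPM after doxorubicin and 23.7, 22.3 and 22.9 CPM with MitoQ. The groups overlapped, and the fold after doxorubicin was 0.964 (95% interval 0.843 to 1.1). Bcl2l11 (chromosome 2, 128126038 to 128162547, plus strand) encodes BIM, a strong activator of the effectors. It was at 5.36, 6.26 and 4.92 CPM in sham, 5.94, 6.11 and 4.52 CPM after doxorubicin and 5.12, 5.45 and 6.01 CPM with MitoQ. Its fold after doxorubicin was 0.998, with an interval of 0.792 to 1.26, and its lowest library was again doxorubicin replicate 3.

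Casp9 (chromosome 4, 141793612 to 141815976, plus strand) encodes the initiator caspase of the apoptosome. It was at 30.8, 29.8 and 30 CPM in sham, 28, 30.9 and 31.6 CPM after doxorubicin and 29.6, 28.5 and 29.9 CPM with MitoQ. The sham and doxorubicin means were both 30.2 CPM, with SDs of 0.5 and 1.88 CPM, and the interval of the fold was 0.905 to 1.11. Its range over the 9 libraries was 1.13-fold from lowest to highest, against 1.11-fold for Bcl2l2 and 1.83-fold for Bcl2. For Mcl1, Bid, Bad, Bcl2l11 and Casp9, the log2 fold changes of MitoQ against doxorubicin lay between -0.04 and 0.07 and those of MitoQ against sham between -0.04 and 0.03.

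Some of these genes overlap others on the opposite strand, and the strand setting of the counting is not stated. Gpr137 covers 20.5% of the exonic bases of Bad and was at 84.6 to 99.2 CPM. Bcl2l13 covers 17.7% of those of Bid and was at 55.9 to 61.7 CPM, and Ggnbp1 (1.75 to 4.04 CPM) covers 18.2% of those of Bak1. D630008O14Rik covers 6.09% of those of Bcl2 and is not in the count table, so its level is unknown. Cela2a and Ctrc each cover 1.81% of those of Casp9 and were at 0 to 0.04 CPM and at 0 CPM. If the counting ignored strand, reads of the shared bases could not be assigned, so the levels of Bad, Bid, Bak1 and Bcl2 carry that uncertainty.

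The promoters of Bcl2 and Bcl2l11 are shown because Bcl2 had the smallest p of the 9 and both genes were lowest in doxorubicin replicate 3. Over the 9 libraries their log2 CPM had a Pearson r of 0.71 (exact permutation p = 0.025, 0.39 adjusted over 36 pairs) and a Spearman rho of 0.33 (exact permutation p = 0.39). Without sham replicate 2 and doxorubicin replicate 3, r was -0.34, so the relation rested on those libraries. Without doxorubicin replicate 3 alone, r was 0.40. Within groups, with both libraries kept, r was 0.91. The sequences are the 250 bases before the RefSeq start on GRCm38.p6, at chr1:106714291-106714540 (minus strand) and, for the upstream of the 2 RefSeq starts of Bcl2l11, chr2:128125788-128126037 (plus strand). Capitals mark GC boxes (GGGCGG, either strand, overlaps counted) and CCAAT boxes (CCAAT, either strand).
Bcl2: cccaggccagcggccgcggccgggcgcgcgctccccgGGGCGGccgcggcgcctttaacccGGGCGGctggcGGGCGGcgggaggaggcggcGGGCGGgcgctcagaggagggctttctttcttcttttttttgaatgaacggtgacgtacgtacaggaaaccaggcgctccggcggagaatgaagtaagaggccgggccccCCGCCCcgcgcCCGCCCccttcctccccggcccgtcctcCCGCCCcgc
Bcl2l11: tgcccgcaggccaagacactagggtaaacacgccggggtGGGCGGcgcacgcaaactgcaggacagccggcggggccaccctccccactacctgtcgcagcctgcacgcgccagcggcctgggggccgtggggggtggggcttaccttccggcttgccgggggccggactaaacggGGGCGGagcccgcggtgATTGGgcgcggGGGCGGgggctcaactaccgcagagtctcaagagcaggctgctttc
The Bcl2 window holds 7 GC boxes and 0 CCAAT boxes at 74.8% G and C, and the Bcl2l11 window 3 and 1 at 72%. Windows of other members also hold GC boxes: 4 for Casp9, 3 for Bid, 3 for the upstream window of Bad, and 1 each for Mcl1 and Bcl2l2. Those of Bcl2l1 and Bak1 hold 0. A relation between these boxes and the levels was not tested. Of all 32851 RefSeq windows of this length, 32.7% hold at least 1 GC box and 33.8% at least 1 CCAAT box. These shares cover windows of any G and C content and were not matched to the G and C content of the windows shown. A match describes the letters only, and no measurement of factor binding was made.

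The other genes of the pathway were read from 5 lists with 71 genes, of which 63 were tested; Bcl2a1a, Bcl2a1d, Bcl2l10, Bcl2l14, Bik, Naip1, Fasl and Tnf had too few counts. None of the 63 passed the threshold in any comparison by edgeR (0% of all genes), DESeq2 or limma-voom. Few or no genes passed by the latter tools in the pairwise comparisons: 44, 5 and 2 of all genes by DESeq2 and 0 by limma-voom. At an unadjusted edgeR p under 0.05, 3 of 63 differed after doxorubicin, all higher, where 4.33% of all genes did so on that side. In MitoQ against doxorubicin 0 of 63 did (3.3% of all genes), and in MitoQ against sham 0 of 63 (2.95%). The median log2 fold change of the 63 was 0.02 after doxorubicin, -0.01 for MitoQ against doxorubicin and 0.01 for MitoQ against sham, beside 0, 0 and 0.01 over all genes tested.

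Casp6, which encodes a caspase that acts downstream of the initiators, measured 3.74 ± 0.29 CPM in sham, 3.09 ± 0.57 CPM after doxorubicin and 3.46 ± 0.24 CPM with MitoQ, and its doxorubicin level differed from sham by -0.28 on the log2 scale (SE 0.16, edgeR adjusted p = 0.64). Its groups overlapped in all 3 comparisons.

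Of the p53-inducible genes that act on this pathway, Bax, the partner effector of BAK, was at 31 ± 2.77 CPM in sham, 28.8 ± 2.78 CPM after doxorubicin and 28.7 ± 2.4 CPM with MitoQ (SD, n = 3). Bbc3, which encodes the BH3-only protein PUMA, was at 8.98 ± 0.23, 8.45 ± 1.59 and 7.55 ± 0.69 CPM in the same order, and its MitoQ libraries all lay below sham (-0.25 on the log2 scale, SE 0.14, edgeR adjusted p over 0.99), as those of 5% of all genes did. Pmaip1, which encodes NOXA, was at 1.14 ± 0.26, 1.2 ± 0.47 and 0.94 ± 0.08 CPM in the same order. It ranged from 0.79 CPM in doxorubicin replicate 2 to 1.71 CPM in doxorubicin replicate 3.

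The 3 pathway genes with the smallest p after doxorubicin were Bok, Naip2 and Parp1. Bok, a BCL2-family effector, was at 60.9, 46.3 and 48.4 CPM in sham, 63.1, 65.5 and 78.8 CPM after doxorubicin and 65.3, 44.9 and 56.6 CPM with MitoQ. Every doxorubicin library was above every sham library (log2 fold change 0.42, SE 0.15, edgeR adjusted p = 0.49), as for 6.2% of all genes on that side. Bok is also a marker of CA3 and CA2 pyramidal neurons. All 8 markers of that list, Bok itself among them, were higher after doxorubicin, none of them at 0. Their levels, with Bok included, summed to 2148 to 2346 CPM after doxorubicin, 1678 to 2023 CPM in sham and 1822 to 2122 CPM with MitoQ. The list is therefore not independent of Bok, and the part of the other markers in the level of Bok was not tested. Naip2, of the inhibitor of apoptosis family, averaged 1.65 ± 0.35 CPM after doxorubicin and 0.93 ± 0.31 CPM in sham (difference 0.8 on the log2 scale, SE 0.28, edgeR adjusted p = 0.49) and may share reads with its paralogs. Parp1, which encodes a DNA damage sensor cleaved by caspases, averaged 143 ± 12.8 CPM after doxorubicin and 127 ± 6.54 CPM in sham (0.17 on the log2 scale, SE 0.07, edgeR adjusted p = 0.51).

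For MitoQ against doxorubicin the smallest p-values belonged to Bok (log2 fold change -0.32, SE 0.14), the mitophagy receptor Bnip3l (0.12, SE 0.06) and Bnip2 (-0.12, SE 0.06), each with an edgeR adjusted p of 0.97. For MitoQ against sham they belonged to the neuronal BH3-only gene Hrk (log2 fold change 0.15, SE 0.08), the ubiquitin ligase gene Fbxw7 (-0.13, SE 0.07) and the p53 relative Trp73 (0.44, SE 0.23), each with an edgeR adjusted p over 0.99.

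**Figure D5:**
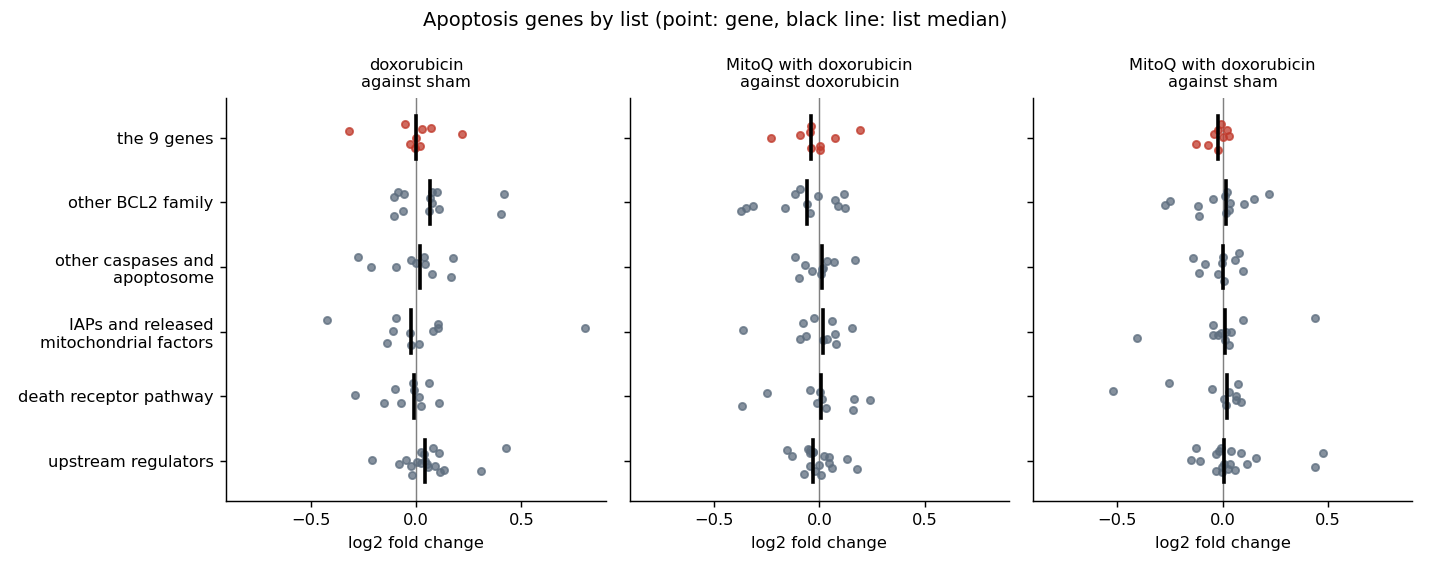
Log2 fold changes of the 9 genes (red) and of the tested genes of 5 pathway lists (grey) in the 3 comparisons, 1 point per gene, with the median of each list as a black line; vertical scatter within a list has no meaning. All list medians lie between -0.06 and 0.07.

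Doxorubicin replicate 3 was the highest or the lowest library for 5 of the 9 genes (Bcl2, Bcl2l1, Bak1, Bcl2l11 and Casp9), and for 43.7% of all genes tested, the largest share of any library. In that library the fibroblast and meninges markers summed to 46.2 CPM, the lowest of the 9, and the CA3 and CA2 markers to 2346 CPM, the highest. All 8 fibroblast and meninges markers were lower after doxorubicin, at sums of 46.2 to 82.7 CPM against 100.2 to 136 CPM in sham and 70.6 to 114 CPM with MitoQ, with none at 0. All 8 microglia markers were lower after doxorubicin, at sums of 388 to 400.3 CPM against 410.4 to 435 CPM in sham and 403 to 437 CPM with MitoQ, with none at 0. CA1 markers, of which 3 of 6 were lower after doxorubicin, summed to 802 to 825 CPM there, 852 to 882 CPM in sham and 844 to 869.8 CPM with MitoQ, with none at 0. The microglia and CA1 sums, like the CPM of Bcl2, were thus lower in every doxorubicin library than in every sham and every MitoQ library. The part of these 3 lists in the level of Bcl2 was not tested. Choroid plexus markers summed to 93.4, 5188 and 104 CPM in sham replicates 1 to 3. The sums were 4252, 82.1 and 2213 CPM in doxorubicin replicates 1 to 3 and 3605, 1403 and 5423 CPM in MitoQ replicates 1 to 3. Sham replicate 2 was the highest of the 9 libraries for Bcl2, but MitoQ replicate 3 had the highest choroid plexus sum, with Bcl2 at 17.7 CPM. Bcl2 was at 16.8 CPM in doxorubicin replicate 1. With the level of the choroid plexus markers as a covariate, the log2 fold change of Bcl2 after doxorubicin was -0.34. That of MitoQ against sham was then -0.20. The part of the choroid plexus in the level of Bcl2 was not tested further. Markers of CA1 neurons (6 of 6), dentate granule cells (7 of 7) and CA3 and CA2 neurons (8 of 8) were detected in every library, and 4 of 5 blood genes looked for were listed at 0 throughout.

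Genes whose log2 CPM followed a member most closely over the 9 libraries were sought among 13870 others averaging 1 CPM or more, and are given as a description. For Bcl2 these were Idh1 (Pearson r = 0.99, Spearman rho = 0.88), Hsp90b1 (0.96 and 0.72) and Canx (0.94 and 0.68). For Bak1 they were Riok3 (0.98 and 0.92), Gpr12 (0.96 and 0.98) and Stx17 (0.96 and 0.88). For Mcl1, Tsc22d2 was closest (0.98 and 0.98), for Bcl2l1 Arhgef10l (0.97 and 0.87), for Bcl2l2 Ndrg2 (0.95 and 0.95) and for Bcl2l11 Adnp2 (0.98 and 0.98). Ccnjl was closest to Bid (0.97 and 0.9), Sumf1 to Bad (0.94 and 0.83) and Necap1 to Casp9 (0.93 and 0.97). All these values share the 9 libraries and their depth. Among the 36 pairs of the 9 genes, 4 had an exact permutation p under 0.05 for Pearson r and 0 an adjusted one, the lowest being 0.37 for Bak1 and Casp9 (r = 0.77, rho = 0.75; r = 0.64 without doxorubicin replicates 2 and 3, and 0.92 within groups).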

How the data were processed

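The table the authors deposited holds raw read counts per gene symbol, 1 column per library; the submitters' processing notes name STAR, DESeq2 and mm10, without versions, and no source used here names the counting program, annotation or strand setting. RNA was extracted with Trizol and columns for TruSeq polyA libraries, per the labels' protocols. Of 24421 entries, 27 with a date in place of a symbol (0.309% to 0.322% of counts) were left out. Genes were filtered by filterByExpr of edgeR 4.0.16 (minimum count 10) in R 4.3.3, scaled by TMM and fitted in one quasi-likelihood model over 9 libraries and 3 groups. SEs are the absolute log2 fold change over the square root of F, and 95% intervals use the t distribution with the model's degrees of freedom. An exact test of 3 against 3 libraries cannot go below p = 0.1, so no such test is given for a gene. The lowest count of a member was 123, and 3 counts were worth 0.072 to 0.12 CPM. Replicates differed by more than sampling noise (chi-square per degree of freedom 8.56 to 30.7).

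Members and lists were chosen with earlier results of these data known. Named were all 9 members, Bax, Bbc3, Pmaip1 and Casp6, the 3 pathway genes of smallest p per comparison, and the 3 genes most correlated with each member, some of which are printed; some genes under the same rule are not reported here. Pathway lists covered other BCL2 family genes, caspases and apoptosome, inhibitors of apoptosis with released mitochondrial factors, death receptors and upstream regulators. Of 12 marker lists, those whose sums did not overlap between groups, the choroid plexus list, and the checks of tissue and blood are given. Coordinates and exons come from GENCODE M21 (GRCm38), promoters from RefSeq (GRCm38.p6; all 9 members matched, with 13 windows). Alternatives used DESeq2 1.42.0, limma-voom (limma 3.58.1), other scaling, filters, thresholds and covariates, and each library left out. The procedure was tested on simulated data.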

Additional observations from a re-analysis of the deposited data

How the results depend on the processing

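No member and no pathway gene passed the threshold under any of the alternatives run. Of 459 alternative log2 fold changes of the members (17 settings for 27 values), 6 moved by more than 1 SE, the largest by 0.22 (Bid, MitoQ against sham, without sham replicate 3), and the lowest adjusted p was 0.37. The sign differed from the reported one in 57, of which 40 left out a library, and 0 of the 57 had an unadjusted p under 0.05. Over all genes, edgeR called 0 in each comparison. DESeq2 called 44 in doxorubicin against sham, 5 in MitoQ against doxorubicin, 2 in MitoQ against sham and 36 for any difference. Without a filter the counts were 1, 2, 0 and 3. An adjusted p under 0.1 gave 1 in doxorubicin against sham. Leaving out libraries gave 0 to 1, 0 to 3, 0 to 3 and 0 to 4 in the same order, the upper values without MitoQ replicate 2. The cause of these changes was not tested. With the replicate block, 2 genes were called in doxorubicin against sham and 0 elsewhere, none of them a member. Deviations of same-numbered libraries from their group means correlated between -0.5 and 0.36. With 3 libraries a group, these values cannot tell whether the numbers pair the libraries. With 3 libraries a group, differences in the members could have been missed. The intervals given do not mark the size that the threshold would detect. For Bcl2 in doxorubicin against sham, the log2 interval of -0.625 to -0.013 lay below 0, yet the edgeR adjusted p was 0.55.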
